A study of Mus musculus with 8 samples.

Results

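T cells recognise antigen through the T cell receptor, whose alpha and beta chains end in constant regions that anchor the receptor in the membrane. The co-receptors CD4 and CD8 bind MHC class II and class I molecules and bring the kinase Lck to the receptor, and they mark helper and cytotoxic T cells. IL-2 then drives expansion through a receptor whose alpha chain, CD25, is made by activated T cells and is held high by regulatory T cells, while T-box factors such as Eomes direct the cytotoxic programme of CD8 T cells and natural killer cells. The genes described here were chosen by name, with earlier results of these data known and as genes already in the table, from these roles: Trbc1, a receptor beta constant region; Cd4; Cd8b1, the beta chain of CD8; Il2ra, the gene of CD25; and Eomes. They are 5 of the 1428 genes of the table, and their presence in it is no result.

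Bulk RNA sequencing compared colon tumours of 4 libraries labelled miR-29ab1Vilin-KO (KO) with colon tumours of 4 Wildtype libraries (WT), all from C57BL/6N mice. In both groups tumours followed azoxymethane, a carcinogen, and colitis from dextran sodium sulfate (DSS), per the series' design text. That text places the loss of miR-29ab1 in the intestinal epithelium, so the T cells of a tumour are not its stated site. The KO titles name Vilin, and the labels say no more of the Cre line. The age of the mice, the alleles carried by WT mice, and whether each library is 1 mouse, 1 tumour or a pool are not stated in the labels. P-values therefore measure only how these libraries vary, and part of that may be technical.

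The values are gene counts divided by a size factor per library (normalized counts), and every gene of the table has p below 0.05 in it, so listing itself is a selection on the comparison of KO with WT. Neither Mir29a nor Mir29b-1 is among the listed genes, so the KO labels could not be checked against the deleted microRNA. The listed genes hold between 1202677 and 2180787 reads per library, which is not the library depth; that depth is unknown. KO replicate 4 stood apart: 75.0% of the genes listed higher in KO had their highest KO value in it, and 59.3% of those listed lower had their lowest KO value in it. Of 10 T cell markers, Trbc1 alone was listed, and the levels of the other 9 were not analysed here. Of 12 markers of colon epithelium, Lgals4 alone was listed, at 32521 to 70224 normalized counts in KO and 13988 to 33046 in WT, so a marker of the labelled tissue was high in every library. In bulk tissue, more cells of a type and more RNA per cell cannot be told apart.

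Eomes was the only member of the 5 with a match to the miR-29 seed in its longest annotated 3′ UTR, and the sequences are shown so that its level, lower in KO as described further on, can be read beside the match. Both mature microRNAs of the deleted cluster, from RefSeq (GRCm38.p6, chromosome 6, minus strand), carry the same seed, bases 2 to 8, in capitals:
mmu-miR-29a-3p: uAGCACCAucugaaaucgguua
mmu-miR-29b-3p: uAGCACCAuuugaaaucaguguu
Eomes 3′ UTR, plus strand, chr9:118485799-118485827 (GRCm38, GENCODE M21): taatgtaaattTGGTGCTttggcgttgta
The capitals in the Eomes line mark the 7 bases TGGTGCT, the reverse complement of the seed, searched on the transcript strand alone, at bases 798 to 804 of a UTR of 1120 bases. The UTRs of Trbc1, Cd4, Cd8b1 and Il2ra, of 216, 1553, 772 and 3411 bases, held no such match. Over all 21022 protein-coding genes with an annotated 3′ UTR, 13.1% hold the match, and of the 1032 listed ones 16.2% do. In mouse T cells Eomes has been described as a target that miR-29 represses; that is background, and a match of letters is not evidence of binding here.

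In the deposited table, Trbc1, Cd4 and Cd8b1 were listed higher and Il2ra and Eomes lower in KO tumours. None of the 5 passed an adjusted p of 0.05, and their adjusted p-values by DESeq2 in the authors' deposited table ran from 0.430 for Cd4 to 0.708 for Eomes. Over the table, 0.56% of genes passed that threshold, all 1428 (100%) are below an unadjusted p of 0.05, and 58.1% are listed higher and 41.9% lower in KO. The KO and WT libraries did not overlap in 4 of the 5 genes, against 44.7% of all listed genes. By the authors' deposited table the median size of the log2 fold change was 1.04 over the 5 genes and 0.96 over all listed genes.

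Trbc1 encodes a constant region that every alpha-beta T cell receptor using it carries, whatever the antigen. Its normalized counts were 77.1, 107.2, 97.0 and 60.7 in KO replicates 1 to 4, against 44.7, 59.6, 44.5 and 52.6 in WT replicates 1 to 4. The lowest KO library, replicate 4, stood just above the highest WT library, replicate 2, while KO replicates 2 and 3 were clear of every WT library. Trbc1 averaged 85.5 ± 20.7 in KO and 50.4 ± 7.21 in WT (SD, n = 4 each). By DESeq2 in the authors' deposited table its log2 fold change is 0.76, with p = 0.00995 and an adjusted p of 0.578. The edgeR quasi-likelihood refit gave an adjusted p of 0.867, and Trbc1 was above an unadjusted 0.05 when KO replicate 2, KO replicate 3, WT replicate 1 or WT replicate 3 was left out. With TMM scaling the groups overlapped, at 51.8 in KO replicate 4 and 62.1 in WT replicate 2, and Trbc1 was above an unadjusted 0.05 in edgeR. Those TMM factors come from the listed genes alone, which were selected on the comparison, so they may not hold for all genes. Trbc1 (MGP_C57BL6NJ_G0002519) lies on chromosome 6 from 41059842 to 41061505, plus strand, in the table's C57BL/6NJ annotation. Its coding bases, 518 in number, align to those of Trbc2 with 95.7% identity in GENCODE M21 and share an identical run of 259 bases, so reads may have been divided between both genes and the level is uncertain.

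Cd4 encodes the co-receptor of helper and regulatory T cells; in mice it is also made by some dendritic cells and innate lymphoid cells. It had 40.5, 36.4, 32.0 and 88.1 normalized counts in KO replicates 1 to 4, against 14.6, 18.5, 26.3 and 19.2 in WT replicates 1 to 4. Every KO library lay above every WT library, and KO replicate 4 was far above the other KO libraries. The means were 49.3 ± 26.1 in KO and 19.6 ± 4.87 in WT (SD, n = 4 each). DESeq2 in the authors' deposited table gives Cd4 a log2 fold change of 1.33, p = 0.00407 and an adjusted p of 0.430. The ratio of the KO to the WT mean was 2.51, and 1.85 without KO replicate 4. In the edgeR quasi-likelihood refit Cd4 had an adjusted p of 0.867, and it stayed below an unadjusted 0.05 whichever 1 library was left out. Cd4 (MGP_C57BL6NJ_G0031709) lies on chromosome 6 from 131555640 to 131579161, minus strand.

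Cd8b1 encodes the chain that, paired with CD8 alpha, forms the co-receptor of cytotoxic T cells. It was close to the limit of detection, with 10, 0, 3 and 11 reads in KO replicates 1 to 4, against 0, 0, 0 and 1 read in WT replicates 1 to 4. KO replicate 2 had no read and so overlapped the WT libraries, while the other KO libraries each had more reads than any WT library. In normalized counts these were 9.64, 0, 2.67 and 10.8 in KO, against 0, 0, 0 and 1.01 in WT. Summed over libraries, 24 KO reads against 1 WT read give a ratio of 23.2 after size factors, with an exact 95% interval of 3.78 to 954 that covers counting error alone. The adjusted p in the authors' deposited table was 0.625 by DESeq2. Cd8b1 (MGP_C57BL6NJ_G0031295) lies on chromosome 6 from 73686459 to 73703065, plus strand. Cd8a, the partner chain, was not listed.

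**Figure D1:**
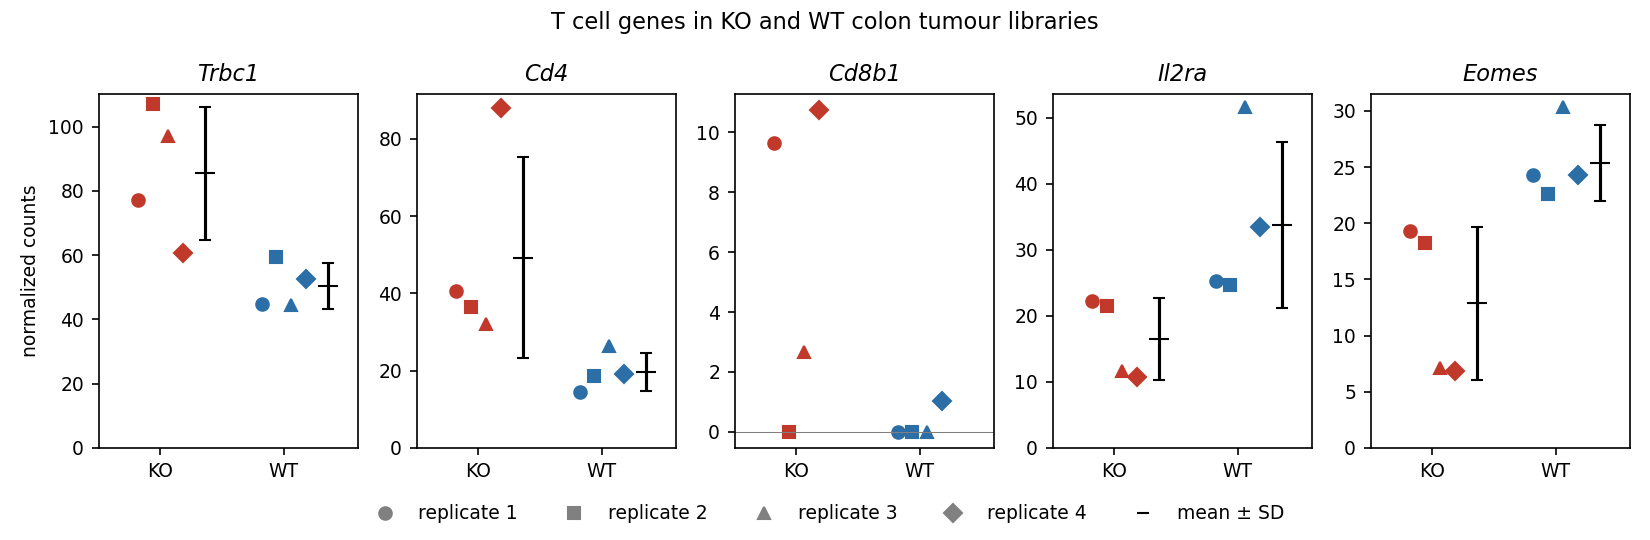
Normalized counts of each gene (y axis, a separate scale per panel) in the 4 KO libraries (red) and 4 WT libraries (blue), with the replicate given by the symbol and the mean ± SD (n = 4) beside each group; Cd8b1 has no mean drawn because WT holds 1 read in all. Trbc1 and Cd4 lie higher in every KO library, Il2ra and Eomes lower in every KO library, and Cd8b1 overlaps through KO replicate 2.

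Il2ra, whose product raises the affinity of the IL-2 receptor, was lower in KO. Its normalized counts were 22.2, 21.4, 11.6 and 10.8 in KO replicates 1 to 4, against 25.3, 24.7, 51.6 and 33.4 in WT replicates 1 to 4. No KO library reached a WT library, but KO replicates 1 and 2 stood close below WT replicates 1 and 2, and WT replicate 3 was the highest. The means were 16.5 ± 6.16 in KO and 33.7 ± 12.5 in WT (SD, n = 4 each), on 67 KO reads against 134 WT reads. Il2ra has a log2 fold change of -1.04 by DESeq2 in the authors' deposited table, with p = 0.0261 and an adjusted p of 0.666. Its edgeR quasi-likelihood refit gave an adjusted p of 0.869, and Il2ra was above an unadjusted 0.05 without WT replicate 3, KO replicate 3, KO replicate 4 or WT replicate 4. Il2ra (MGP_C57BL6NJ_G0025761) lies on chromosome 2 from 9304532 to 9362648, plus strand.

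Eomes, a transcription factor that promotes cytotoxic genes in T cells, was lower in KO as well. It had 19.3, 18.2, 7.12 and 6.85 normalized counts in KO replicates 1 to 4, against 24.3, 22.6, 30.3 and 24.3 in WT replicates 1 to 4. The KO libraries fell into a pair just under the WT libraries and a pair, replicates 3 and 4, far under them, while the WT libraries lay close together. The means were 12.9 ± 6.81 in KO and 25.4 ± 3.40 in WT (SD, n = 4 each), on 52 KO reads against 101 WT reads. For Eomes the authors' deposited table has a log2 fold change of -0.99 by DESeq2, with p = 0.0481, near the limit for listing, and an adjusted p of 0.708. In the edgeR quasi-likelihood refit Eomes had an adjusted p of 1 and was above an unadjusted 0.05, and of the 8 refits that leave out 1 library it fell below 0.05 in 1, without KO replicate 1. Eomes (MGP_C57BL6NJ_G0035904) lies on chromosome 9 from 124468157 to 124476074, plus strand, so its seed match coordinates above, which are of GRCm38, are not on the same scale.

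Per kilobase of gene model, Trbc1 was the most abundant of the 5 in both groups, at 114.1 ± 27.7 normalized counts per kilobase in KO and 67.2 ± 9.63 in WT. In KO, Cd4 came next at 12.2 ± 6.47 per kilobase, then Cd8b1 at 3.89 ± 3.54, Eomes at 3.10 ± 1.64 and Il2ra at 2.89 ± 1.08, and the last 3 did not differ beyond their spread. In WT, Eomes stood at 6.11 ± 0.818 per kilobase, Il2ra at 5.91 ± 2.20 and Cd4 at 4.87 ± 1.21, and the ranges of these neighbours overlapped over libraries, with Cd8b1 lowest at 0.171 ± 0.341. In KO, the lowest library of Cd4, at 7.94 per kilobase, lay above the highest KO library of Il2ra, at 3.88, and of Eomes, at 4.64.

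Trbc1 and Cd4 did not vary together over the libraries. The ratio of Trbc1 to Cd4, which cancels the size factor of a library, was 1.90, 2.94, 3.03 and 0.689 in KO replicates 1 to 4, against 3.07, 3.22, 1.69 and 2.74 in WT replicates 1 to 4. The ranges overlapped, and KO replicate 4 was the only library with more Cd4 than Trbc1 normalized counts. That library was the lowest of the KO libraries for Trbc1 and the highest for Cd4, and the order of the KO libraries was close to reversed between both genes. With group means subtracted, Pearson's r between Trbc1 and Cd4 was -0.72 over the 8 libraries on the log2(value + 1) scale. KO replicate 4 weighs heavily in that r, since the gap of its Cd4 to the next KO library takes 0.849 of the KO range. The r was not computed without KO replicate 4, and it is a description over libraries that share a scaling factor.

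Il2ra and Eomes, by contrast, kept the same order in the KO libraries, replicate 1 highest and replicate 4 lowest. KO replicates 1 to 4 held 23, 20, 13 and 11 Il2ra reads and 20, 17, 8 and 7 Eomes reads. The order of replicates 1 and 2, and of 3 and 4, thus lies within counting error. Of all genes listed lower, 59.3% had their lowest KO value in replicate 4. WT replicate 3 was the highest WT library for both Il2ra and Eomes. The ratio of Il2ra to Eomes was 1.15, 1.18, 1.63 and 1.57 in KO, against 1.04, 1.09, 1.70 and 1.38 in WT. The ranges overlapped and the mean log2 ratios, 0.41 ± 0.23 in KO and 0.34 ± 0.32 in WT (SD, n = 4 each), differed by 0.07, less than either spread. Both genes thus differed between groups by nearly the same factor, with KO means 0.489 times the WT mean for Il2ra and 0.507 times for Eomes.

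**Figure D2:**
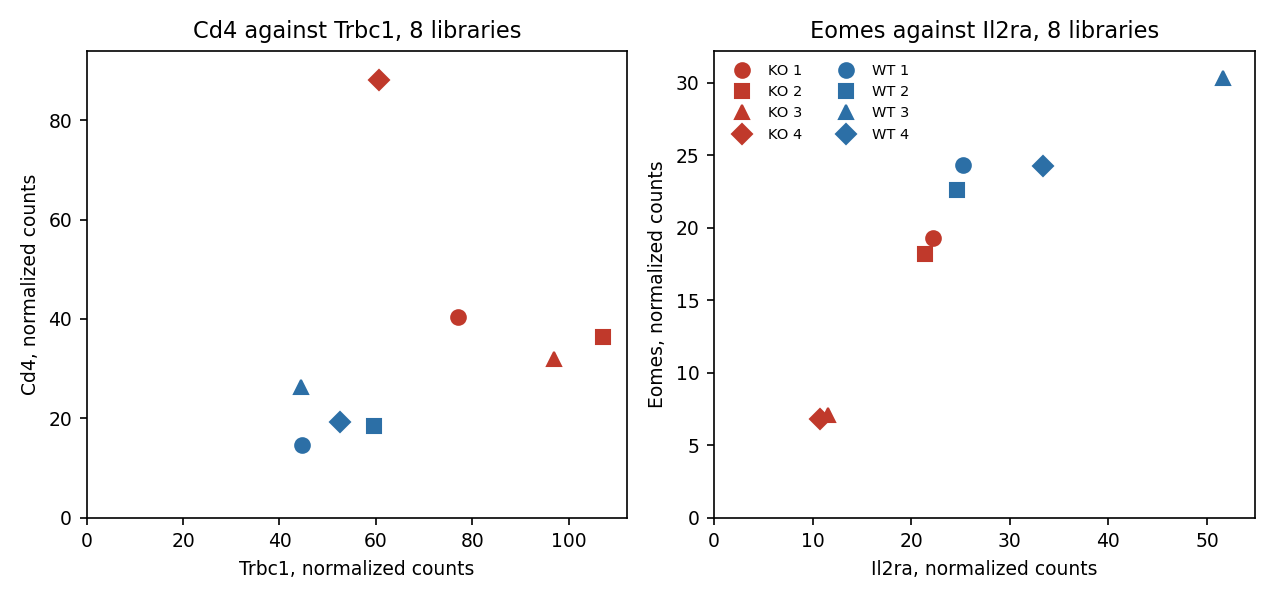
Normalized counts of Cd4 against Trbc1 (left) and of Eomes against Il2ra (right) in each library, KO in red and WT in blue, with the replicate given by the symbol. On the left KO replicate 4 combines the highest Cd4, 88.1, with the lowest Trbc1 of the KO libraries, 60.7; on the right KO replicates 3 and 4 lie together at the bottom and WT replicate 3 at the top.

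Of the 6 pairs that join a gene listed higher to a gene listed lower, 4 had ratios that separated the groups, and the pairs of Cd8b1 with Il2ra and with Eomes overlapped. The ratio of Cd4 to Il2ra was 1.83, 1.70, 2.77 and 8.18 in KO, against 0.577, 0.750, 0.510 and 0.576 in WT, so Cd4 exceeded Il2ra in normalized counts in every KO library and in no WT library. The ratio of Cd4 to Eomes was 2.10, 2.00, 4.50 and 12.9 in KO, against 0.600, 0.818, 0.867 and 0.792 in WT. The ratio of Trbc1 to Il2ra ran from 3.48 to 8.38 in KO and from 0.863 to 2.42 in WT, and that of Trbc1 to Eomes from 4.00 to 13.6 in KO and from 1.47 to 2.64 in WT. No other of the 10 pairs of members had ranges that did not overlap. The direction of these pairs was fixed by the listing. Trbc1, Cd4, Il2ra and Eomes each had groups that did not overlap, as did 44.7% of all listed genes. A ratio of such a higher gene to such a lower gene must then separate the groups. The separation therefore adds nothing to the single genes and is given with no test. The share over other pairs of listed genes was not computed.

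The summed level of B cell markers was, like Cd4, highest in KO replicate 4. Of all genes listed higher in KO, 75.0% had their highest KO value in that library. Among the markers, Cr2 was slightly higher in KO replicate 2, at 120.0 normalized counts against 117.4 in KO replicate 4. All 12 B cell markers were listed, all 12 higher in KO, where 58.1% of all listed genes are higher. The list was chosen with earlier results of these data known, so that count is no test. Among the 12, only Cd22, Cd79a and Pou2af1 had groups that did not overlap, against 44.7% of all listed genes. The summed level of the markers ran from 261.3 to 3540 normalized counts in KO and from 138.7 to 323.7 in WT. In KO replicate 4, the library highest in Cd4, the median marker stood at 16.5 times its WT mean, while Cd4 stood at 4.48 times and Trbc1 at 1.20 times. In KO replicate 1, where Cd4 stood at 2.06 times its WT mean, the median B cell marker stood at 1.07 times. None of the 12 was at 0 in a KO library; in WT replicate 2, 5 were at 0, among them Pax5, Cr2, Fcrla and Blk. Of the other marker lists, that of dendritic cells had 1 of 11 genes listed, Fscn1. It was lowest in KO replicate 4, at 98.8 normalized counts against 460.8 to 646.0 in the other KO libraries. In WT Fscn1 ran from 550.7 to 1348, with overlap. Of all genes listed lower in KO, 59.3% had their lowest KO value in KO replicate 4. Fos and Fosb, immediate early genes and the listed ones of 10 genes of RNA quality and stress, summed to between 2479 and 3901 in KO and between 1666 and 2353 in WT, and Fosb was higher with an adjusted p of 0.0447 by DESeq2 in the authors' deposited table. The mast cell proteases Mcpt1 and Tpsb2, listed of 8 mast cell genes, summed to between 11.7 and 449.3 in KO and between 86.0 and 2191 in WT, lowest in KO replicate 4. Of neutrophil markers 1 of 8 was listed and of endothelial markers 1 of 6, while no marker of plasma cells, macrophages or fibroblasts and muscle was. The part of these in the results was not tested.

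**Figure D3:**
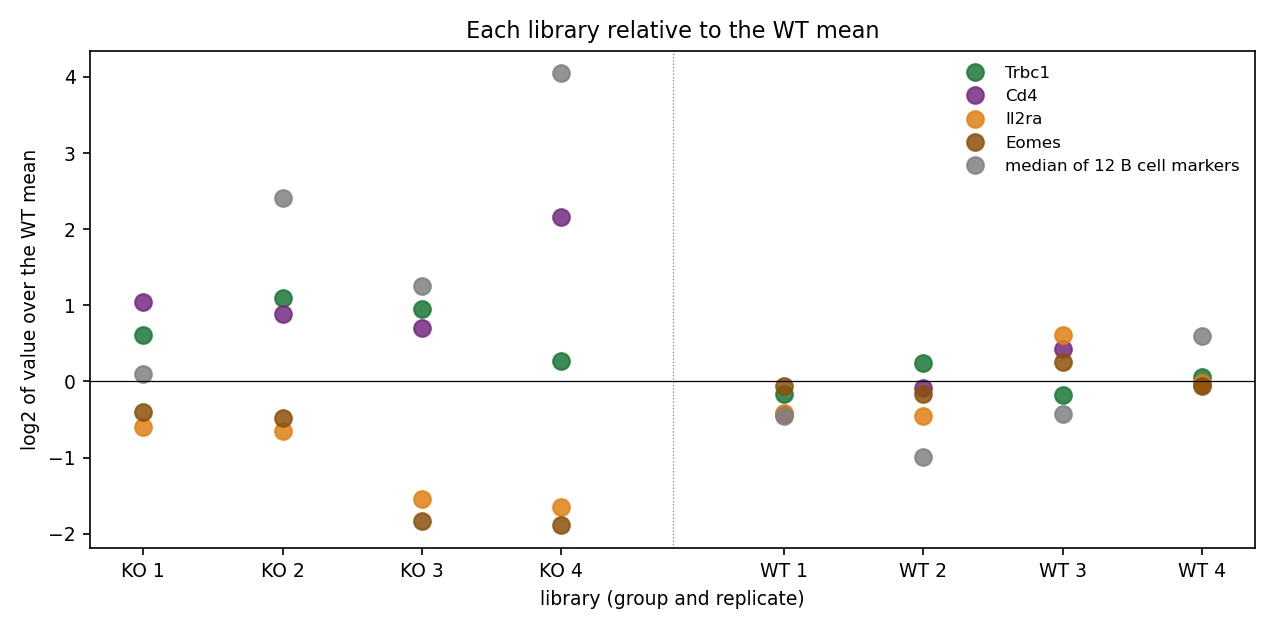
Log2 of each library's value over the WT mean of that gene (y axis) for Trbc1, Cd4, Il2ra and Eomes and for the median of 12 B cell markers, in each KO library (left) and each WT library (right). In KO replicate 4 Cd4 and the median B cell marker are both at their highest, while Trbc1 is close to the WT mean. Il2ra and Eomes lie lowest in KO replicates 3 and 4.

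Around these genes, 11 lists of T cell pathways held 127 distinct symbols, of which 7 besides the members were listed. Over all genes, 1428 are listed of the 19985 that the deposited adjusted p-values imply. Of the 7, 6 were higher and 1 lower in KO, against 58.1% and 41.9% of all listed genes. None of the 7 passed an adjusted p of 0.05, and the lists were chosen with earlier results of these data known. The receptor complex list had 1 of 7 symbols listed, Trbc1 itself, and the lists of 14 cytotoxic effectors and 7 gamma delta T cell genes had none. Of 10 regulatory T cell genes and of 12 genes of IL-2 and related receptors, Il2ra was the only symbol listed. The co-receptor list had Cd4 and Cd8b1 listed of 3 symbols, and the list of 14 natural killer and innate lymphoid cell genes had 2, Cxcr5 among them.

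Of 20 receptor signalling genes, 2 were listed, Txk higher and Fyn lower in KO. Txk, a Tec-family kinase of T cells, had 17.4, 21.4, 19.6 and 8.81 normalized counts in KO, against 8.75, 6.16, 5.06 and 9.11 in WT; the groups overlapped through KO replicate 4, which was also the lowest KO library for Trbc1. Fyn, a Src-family kinase that acts beside Lck and is also made by many other cells, had 185.1, 209.0, 261.6 and 138.9 in KO, against 300.6, 333.9, 424.7 and 204.4 in WT, with overlap.

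Of 19 T-box and effector regulators, 3 were listed, 1 of them, Eomes, lower and the others higher in KO. Irf4, a factor induced by antigen receptor signals in T and B cells, had 55.0, 85.7, 43.6 and 81.2 normalized counts in KO, against 33.1, 23.6, 19.2 and 27.3 in WT. The groups did not overlap, and its log2 fold change is 1.36 with an adjusted p of 0.161 by DESeq2 in the authors' deposited table.

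Among homing genes, 2 of 13 were listed, both higher in KO, and Btla was listed higher too. Itga4, an integrin chain used by lymphocytes to enter the gut wall, had 81.0, 122.2, 99.7 and 120.4 normalized counts in KO, against 73.9, 60.6, 46.5 and 31.4 in WT, and the groups did not overlap. By DESeq2 in the authors' deposited table Itga4 has a log2 fold change of 0.99 and an adjusted p of 0.413. Cxcr5, a receptor for follicle homing shared by B cells and follicular helper T cells, had 3.86, 34.3, 5.34 and 126.2 in KO, against 4.86, 0, 6.07 and 3.04 in WT. Btla, an inhibitory receptor of B and T cells and the only symbol listed of 15 co-stimulatory and inhibitory receptors, had 12.5, 42.9, 4.45 and 148.7 in KO, against 9.73, 11.3, 4.05 and 8.09 in WT. Cxcr5 and Btla were both high in KO replicates 2 and 4, the libraries with the highest B cell markers, and within the WT range or near it in KO replicates 1 and 3.

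For each member with a mean of at least 10 normalized counts, the listed genes whose log2 values deviated most alike from their group means were taken, out of 1118 compared. For Trbc1 these were Prdx4, a peroxiredoxin of the secretory pathway, Uchl5, a proteasome-associated deubiquitinase, and Ube2d2a, a ubiquitin-conjugating enzyme, with Pearson's r of 0.98, 0.96 and 0.94 over the 8 libraries. All 3 were listed lower in KO, opposite to Trbc1. For Cd4 they were Slc5a6, a vitamin transporter, Plekha6 and Cnst, with r of 0.98, 0.97 and 0.97. Each was highest in KO replicate 4, as Cd4 was, which follows from choosing genes that deviate like Cd4. Of all genes listed higher in KO, 75.0% had their highest KO value in that library. For Il2ra the nearest was Eomes, with r of 0.86, then B9d2, a ciliary protein, and Nfil3, a transcription factor of innate lymphocytes and many other cells, with r of 0.86 and 0.85. For Eomes the nearest were Dync1i1, a dynein chain, Il2ra and Gm6377, with r of 0.86, 0.86 and 0.85. These values are the highest of many over 8 libraries that share scaling factors, so they describe likeness in these libraries alone.

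Trbc1, Cd4 and Cd8b1 all lie on chromosome 6, which also carries the deleted cluster of Mir29a and Mir29b-1 in GRCm38. Mature miR-29a-3p starts at 31062673 in GRCm38. In the C57BL/6NJ annotation, whose coordinates differ, Trbc1 starts at 41059842, Cd8b1 at 73686459 and Cd4 at 131555640. That chromosome holds 92 of the 1428 listed genes (6.44%), 52 higher and 40 lower in KO. Over all listed genes, 58.1% are higher and 41.9% lower. A part of the location in the results was not tested.

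Refits of the reads recovered from the deposited values kept the direction of all 5 genes. The edgeR quasi-likelihood refit put 4 of the 5 below an unadjusted p of 0.05, where 77.9% of all listed genes stayed, and Eomes was the exception. All 5 stayed below it in the DESeq2 refit, as did 94.9% of listed genes, and in limma with a pseudocount of 1 and of 0.1, as did 71.9% and 68.9%. With TMM factors 4 members stayed, against 62.3% of listed genes, and among genes with a mean of at least 10 normalized counts 3 of 4 stayed, against 75.4%. With the replicate number as a block 2 stayed, against 39.1%.

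Without 1 library at a time in edgeR, the members below an unadjusted p of 0.05 were 5 without KO replicate 1, where 59.8% of listed genes stayed, 3 without KO replicate 2 (60.9%), 2 without KO replicate 3 (64.3%) and 3 without KO replicate 4 (51.9%). They were 3 without WT replicate 1 (46.2%), 4 without WT replicate 2 (51.8%), 2 without WT replicate 3 (62.7%) and 3 without WT replicate 4 (45%). None of the 5 passed an adjusted p of 0.05 in any refit; 2.59% of listed genes did in the DESeq2 refit and none in the others.

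**Figure D4:**
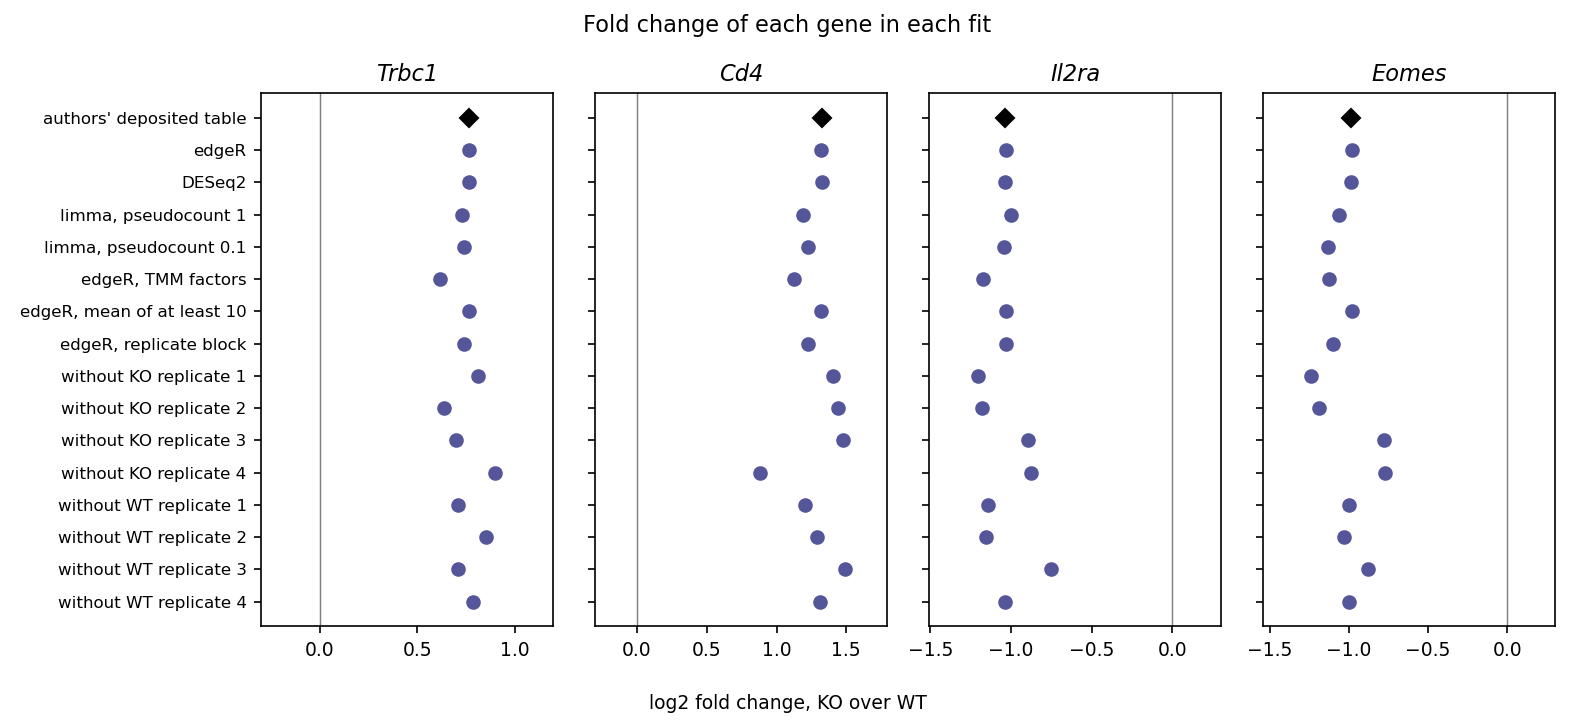
Log2 fold change of KO over WT (x axis, a separate scale per panel) of Trbc1, Cd4, Il2ra and Eomes in the authors' deposited table (black diamond) and in each refit (circles, named on the y axis). Every fit lies on the same side of 0 as the deposited value; the largest shift for Cd4 is the fit without KO replicate 4, at 0.88, and for Il2ra the fit without WT replicate 3, at -0.75.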

How the data were processed

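Per the labels' protocols, TRIzol RNA of colon tumours went into strand-marking NEBNext Ultra Directional libraries. HISAT2, DESeq2 and GRCh38, a human build, are named by the submitters' processing notes, whereas the deposited gene identifiers belong to the mouse C57BL/6NJ annotation. No source used here says whether counting used strand. The deposited table holds normalized signal (counts divided by size factors) per library, and the authors' log2 fold change, p-value and adjusted p-value. Every value fell within 0.01 of a whole number once multiplied by a size factor, for 100% of values in each library, so reads were recovered.

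The authors' table was described and the reads were refitted with edgeR 4.0.16, DESeq2 1.42.0 and limma 3.58.1 in R 4.3.3, adjusting over 19985 genes, the number that the deposited adjusted p-values imply; the steps were tested on simulated data. Refits rest on a list selected by p, so they are not independent tests. Libraries of a group differed beyond counting noise (chi-square per degree of freedom at least 19.8) and were kept apart. The members, lists and tests were chosen with earlier results of these data known. Named genes were the 5 members, every listed symbol of 11 fixed T cell lists except 1 that is not reported here, and the 3 genes most like each member; marker genes are given where they stand beside a result.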

Additional observations from a re-analysis of the deposited data

Results flagged for a closer look

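In all, 3 library values stood far from the others of their group, by Dixon's ratio of the gap to the range, among 64 groups of 4 libraries looked at; chance gives about 1 in 20 such groups. Cd4 in KO replicate 4 stood at 88.1 normalized counts, with the gap to the next KO library taking 0.849 of the KO range. Cd8b1 in WT replicate 4 stood at 1.01 normalized counts, a single read, where the other WT libraries had none. Plekha6, among the genes most like Cd4, stood at 12467 normalized counts in KO replicate 4, with a ratio of 0.908.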

How the results depend on the processing

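All refits kept the sign of the 5 log2 fold changes, and no refit took a member past an adjusted p of 0.05. Of the 5 members below an unadjusted p of 0.05, 4 stayed with edgeR, 3 with edgeR on genes of a mean of at least 10 (Cd8b1 is left out there) and 2 with edgeR and the replicate block, Cd4 and Cd8b1. Without 1 library the number ran from 2 to 5. Same-numbered libraries did not deviate together (r from -0.24 to 0.05 over 4 pairs), so the numbers are not taken to pair them. Over the table, 8 genes pass an adjusted p of 0.05 in the deposited values, 37 in the DESeq2 refit and 0 with edgeR or limma, where 1112 and 1027 keep their sign and an unadjusted p under 0.05. TMM factors from the listed genes lowered the median log2 fold change by 0.16 and the share of higher genes among those below an unadjusted p of 0.05 to 37.5%, against 58.3% with the deposited factors; 3 in place of 4 members then had groups that did not overlap. The pairs of members with separate ratios numbered 4 to 7 without 1 library, at most without KO replicate 2, whose Cd8b1 is 0. Of the 12 likeness pairs, 7 were kept with Spearman's rho and 3 to 6 without 1 library; the cause was not tested. The leave-one-out counts of ratios and likeness were chosen after seeing the data. The ratio of the Cd8b1 means has no value without WT replicate 4. Read counts of 7 to 51 limit Il2ra and Eomes, and 0 to 11 limit Cd8b1.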
